A study of Papilio xuthus with 16 samples.

Results

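The ribosomal protein genes of the swallowtail butterfly *Papilio xuthus* were followed in larval epidermis through 2 molts. A gene was taken as a member where its name in the study's gene lists begins with "ribosomal protein", and all array probes with its sequence identifier were used. This gave 76 of the 3380 P. xuthus sequences on the array and 200 of the 8697 P. xuthus probes. The gene lists were used in part, so any ribosomal protein gene named only in their other rows was not analysed here as a member. The members were 43 proteins of the large subunit, 3 of its P stalk (LP0, LP1 and LP2) and 30 of the small subunit. A gene had 2 probes in 44 cases, 3 probes in 22 cases and 4 probes in 7 cases, and 1 gene each had 5, 6 and 7. The study used these genes as housekeeping genes to ask whether arrays could be compared across samples.

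Ribosomes translate messenger RNA into protein and consist of a small subunit, which reads the codons, and a large subunit, which joins the amino acids. Each subunit is a scaffold of ribosomal RNA with many small proteins, most of them present as a single copy, so that cells make these proteins in similar amounts and their genes often change together. In a growing larva the epidermis also builds a new cuticle at each molt, which calls for much protein synthesis.

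Each array compared a dark region, labelled with Cy5, with a pale region of the same stage, labelled with Cy3. In the third instar, the young larva that mimics bird droppings, black abdominal epidermis was set against white abdominal epidermis (6 arrays). The stages were the intermolt and 0, 4, 8, 11 and 16 h after head capsule slippage (HCS), the time in the molt when the old head capsule comes loose. In the fourth instar, which prepares the cryptic green pattern, eyespot epidermis of the third thoracic segment was set against unmarked epidermis of the second thoracic segment, called thoracic green (5 arrays). V-shaped marking epidermis of the abdomen was set against unmarked abdominal epidermis, called abdominal green (5 arrays). The stages there were the intermolt and 1, 4, 10 and 13 h after HCS. The labels name no strain, treatment or number of animals, and the black and V-shaped pieces came from abdominal segments that only partly overlap those of their pale partners. There was 1 array per stage and marking, so the stages were the only replicates and every p-value measures the spread between stages alone. The dyes were never swapped, so dye, marking and segment cannot be told apart in the dark over pale ratios. The 16 arrays lay on 2 slides. Slide 1 held the third-instar arrays of 8 and 11 h and the fourth-instar arrays of 4, 10 and 13 h, and slide 2 held the others, both intermolts included.

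Signals were scaled so that each channel had the same 75th percentile, which was 2590 to 4720 before scaling. They were averaged on the log2 scale over the probes of a gene and expressed relative to that gene's own mean over the 32 channels. Levels were not compared between genes. Of the 3200 member spots, 3182 in Cy5 and 3180 in Cy3 were well above background, none was saturated, and 17 were left out as outliers by the scanner's mark. Of the 200 probes, 194 were well above background in every channel. The exception with most failures was probe 4 of L3, which was not well above background in 30 of the 32 channels. Genes for cuticular proteins, which mark epidermis, were strongly regulated, with a median over 63 genes between -4.11 and 3.09 in the 32 channels. A list of 12 muscle genes had medians between -1.81 and 1.51, and the pieces therefore differed in their share of muscle RNA or in its level, which cannot be told apart in whole tissue.

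Probe sequences are given for the genes on which the results turn, because probes of 1 gene that lie at different distances from the end of the transcript did not behave alike. Sequences were held for 152 of the 200 probes. Of these, 84 lay within the coding sequence, 40 ran across the stop codon, 12 ended in a run of 6 A and 16 fell in none of these classes. Only the coding part is printed, 5′ to 3′, with the stop codon in capitals, and a probe without capitals lies wholly before it.
L9 probe 1: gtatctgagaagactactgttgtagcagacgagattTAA
L9 probe 2: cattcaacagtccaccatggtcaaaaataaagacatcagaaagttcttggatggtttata
L13 probe 4: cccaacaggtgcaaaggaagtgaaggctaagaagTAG
L13 probe 2: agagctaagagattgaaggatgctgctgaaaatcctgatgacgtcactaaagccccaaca
L35A probe 1: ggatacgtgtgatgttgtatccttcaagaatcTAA
L35A probe 2: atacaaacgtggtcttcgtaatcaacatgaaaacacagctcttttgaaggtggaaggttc
L37A probe 1: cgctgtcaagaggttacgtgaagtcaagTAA
L37A probe 2: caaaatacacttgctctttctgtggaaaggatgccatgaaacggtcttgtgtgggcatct
L28 probe 1: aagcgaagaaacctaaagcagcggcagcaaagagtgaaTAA
L28 probe 2: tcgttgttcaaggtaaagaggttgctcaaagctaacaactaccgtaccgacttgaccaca
L12 probe 1: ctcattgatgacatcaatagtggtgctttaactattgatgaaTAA
L12 probe 2: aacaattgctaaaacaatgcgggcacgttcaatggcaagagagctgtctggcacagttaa
S5a probe 1: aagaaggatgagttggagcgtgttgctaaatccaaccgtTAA
S5a probe 2: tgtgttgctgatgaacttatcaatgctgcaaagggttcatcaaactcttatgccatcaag
Distances from the stop codon were counted from the first full codon of a probe, so its far end lies closer. L9 probe 2 began 32 codons before the stop codon, L13 probe 2 began 29, L28 probe 2 began 49 and L37A probe 2 began 55 codons before it. L12 probe 2 began 54, S5a probe 2 began 33 and L35A probe 2 began 100 codons before it. L9, L13, L28, L35A and L37A are shown for the difference between slides. L12 and S5a are shown for the difference between dark and pale epidermis.

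The ribosomal protein genes moved together from stage to stage. Their median was 0.49 to 0.50 in the 2 channels of the third-instar intermolt, where all sequences had a median of 0.36 to 0.37. In the third-instar molt it was -0.06 to -0.03 at 0 h, -0.38 to -0.31 at 4 h, -0.33 to -0.17 at 8 h, -0.34 to -0.01 at 11 h and 0.03 to 0.14 at 16 h. The group was thus highest in the intermolt, lowest between 4 and 11 h and near its mean again at 16 h. The median of all sequences was -0.23 at 4 h, -0.13 to -0.05 at 8 h and -0.023 to 0.095 at 11 h.

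In the fourth instar the medians were 0.27 to 0.33 in the 4 channels of the intermolt, -0.48 to -0.30 at 1 h, 0.39 to 0.56 at 4 h, -0.11 to -0.04 at 10 h and -0.10 to 0.09 at 13 h. The 4 channels of the 4 h stage stood apart from the molting stages around them. The median of all sequences there was -0.18 to -0.14. In the intermolt all sequences had a median of 0.13 to 0.14 and at 1 h of -0.20 to -0.02. All 76 members were above their own mean at 4 h. LP1 was lowest at 0.07 and L31 highest at 0.97, or 0.73 without the corner spots described below.

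By stage mean, 74 members were above their own mean in the third-instar intermolt, and 32, 2, 5, 15 and 51 at 0, 4, 8, 11 and 16 h. In the fourth instar 70 were above it in the intermolt, and 1, 76, 30 and 36 at 1, 4, 10 and 13 h. The single member above its mean at 1 h was S28b, at 0.08. S28 is a small-subunit protein near the channel through which mRNA leaves.

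**Figure D1:**
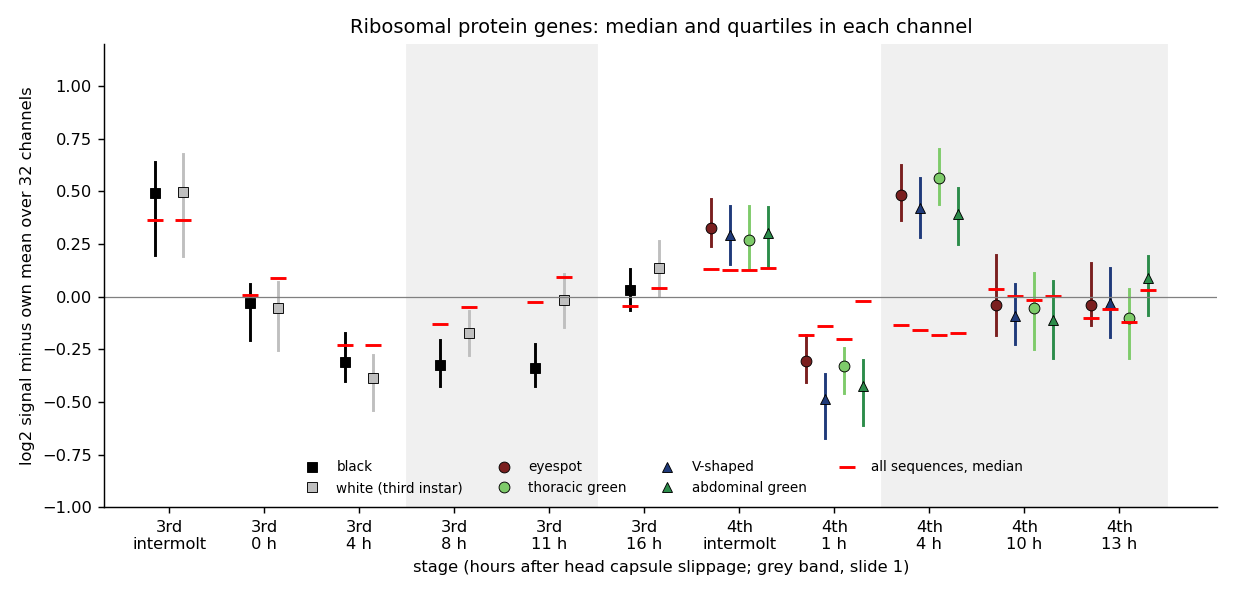
Median over the 76 ribosomal protein genes in each of the 32 channels, in log2 relative to each gene's own mean, with the dark region left of its pale partner at each stage. The medians are highest in the third-instar intermolt and at 4 h of the fourth-instar molt (up to 0.56) and lowest at 1 h of the fourth-instar molt (down to -0.48).

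Across the 32 channels the members varied little. The SD of a gene over the channels had a median of 0.36 on the log2 scale (0.26 to 1.26), against 0.95 for all sequences. Within a channel the interquartile range of the members was 0.20 to 0.49. Large-subunit and small-subunit medians differed by -0.11 to 0.12 (large minus small). With the scaling described above and the corner spots included, S6 and L18 kept closest to the median of the members in each channel. The SD of their difference from that median was 0.063 and 0.07. S6 is the small-subunit protein that is phosphorylated by S6 kinase downstream of TOR signalling, and L18 belongs to the large subunit. After normexp background correction with loess and Aquantile normalization, this SD was 0.153 for S6 and 0.122 for L18. It was then smallest for L26 (0.084) and L14 (0.085). S6 had stage means of 0.41, -0.10, -0.27, -0.23, -0.15 and 0.09 in the third instar (intermolt, then 0, 4, 8, 11 and 16 h). In the fourth instar it had 0.24, -0.44, 0.41, -0.08 and -0.00 (intermolt, then 1, 4, 10 and 13 h).

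The size of these shifts depended on the processing. A change of scale moves all genes of a channel at once. Without scaling the stage medians were 0.46, 0.16, -0.05, 0.00, 0.03 and -0.08 in the third instar and 0.26, -0.12, 0.37, -0.39 and -0.23 in the fourth. After normexp background correction with loess and Aquantile normalization they were 0.80, 0.48, 0.15, -0.17, -0.41 and 0.13 in the third instar. In the fourth instar they were 0.45, 0.20, 0.06, -0.53 and -0.50. Normexp also moved the members relative to all sequences. Their median minus that of all sequences changed from -0.247 to 0.197 at 1 h and from 0.633 to 0.217 at 4 h of the fourth-instar molt. The high level of both intermolts was present in all 3. With only probes well above background the members' medians were 0.442 in the third-instar and 0.295 in the fourth-instar intermolt. All sequences had 0.532 and 0.305 in that setting, so the members were not above them. The high level at 4 h of the fourth-instar molt was 0.06 after normexp, and the low level at 1 h had a positive sign there.

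The other genes of the translation machinery were described from a list of 12, among them elongation factors, initiation factors and the polyA-binding protein. Their median was 0.68 to 0.76 in the third-instar intermolt and 0.28 to 0.46 in the fourth-instar intermolt. At 4 h of the fourth-instar molt it was 0.08 to 0.31, below the ribosomal protein median in each of the 4 channels. At 10 h it was -0.40 to -0.14.

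A model of the 11 stage means with instar, molt, hours after HCS and slide as terms asked whether the shifts followed the design. Molting against intermolt stages, all 76 members were lower, with a median of -0.57 against -0.37 over all sequences. None of the 76 passed limma's test after Benjamini-Hochberg adjustment (smallest adjusted p = 0.171), and 0 passed at an unadjusted p under 0.05. Over all sequences 8.4% were called in this comparison, and 1029 of 3380 passed at an unadjusted p under 0.05. The estimates were smallest for L7A (-0.06 ± 0.30, SE, n = 11 stages) and L8 (-0.10 ± 0.31), which lies near the peptidyl transferase centre. They were largest for L35 (-1.16 ± 0.60) and L31 (-1.13 ± 0.66), both at the exit of the nascent peptide tunnel. Without a patch of low spots on 1 array, described below, L35 was at -0.60 and L31 at -0.57. The fit without the 16 h stage gave a median of -0.96.

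Between the fourth and the third instar, 0 of 76 members passed limma's test (0 at an unadjusted p under 0.05), where 0.651% of all sequences were called. The median of the members was 0.05, against -0.05 over all sequences. The median changed sign with the processing, at -0.17 without scaling and -0.14 after normexp. A plain difference of stage means between the instars was also taken within each slide, without the other terms of the model. Its median was -0.08 within slide 2, with 18 of 76 members higher in the fourth instar. Within slide 1 it was 0.35, with 76 of 76 higher. The hours after HCS differed between the instars and between the slides, and both intermolts lay on slide 2. These values therefore mix instar with stage and cannot be set against each other or against the model median. In the model the highest estimates were L13 at 0.43 ± 0.21 (adjusted p = 0.376, limma) and L8 at 0.31 ± 0.23. The lowest were L31 at -0.65 ± 0.48 and L35 at -0.50 ± 0.44, and without the patch of low spots these were -0.11 and 0.04.

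Along the hours after HCS, 0 of 76 members passed limma's test (0 at an unadjusted p under 0.05), where 17.4% of all sequences were called. The median slope was 0.005 log2 units per hour. The steepest positive slopes were those of L7 (0.045 ± 0.053) and L7A (0.043 ± 0.023), with L7 at 0.015 without the patch of low spots, and the most negative were those of L39 (-0.020 ± 0.028) and S26 (-0.013 ± 0.028). Without the 16 h stage the median slope was -0.052.

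The deviation of a gene from the group was its centred value in a channel minus the median of all members in that channel. A deviation of at least 1 occurred for 7 genes, in 14 values. All 14 came from the V-shaped and abdominal green channels of the array at 1 h, with each gene deviating in both. The genes were L7, L10, L31, L35, L40, LP2 and S7. L40 is made as a fusion with ubiquitin and L10 joins the large subunit late in its assembly. L7 deviated by -4.32 in V-shaped and -4.07 in abdominal green epidermis, and between -0.33 and 0.22 in the other 30 channels.

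In each of the 7 genes the deviation came from 1 probe. These 7 spots lay in rows 152 to 187 and columns 61 to 74 of the array and read -14.37 to -6.07 in V-shaped and -13.24 to -5.14 in abdominal green epidermis, relative to their own means. The other 16 spots of the same genes on that array read -1.24 to -0.24 and -1.14 to -0.16. The corner of rows 150 to 192 and columns 58 to 82 held 577 P. xuthus spots, 20 of them of ribosomal protein genes. There 26.5% of spots in V-shaped and 21.3% in abdominal green epidermis were more than 2 log2 units below their own median, against 11.2% and 11.3% elsewhere on the array. Without this corner no gene deviated by 1 or more, the largest deviation was 0.86 (L8), and L7 deviated by 0.04 and -0.12. L7, L31 and L35 were also the genes whose probes disagreed most, with a mean SD between probes of 0.905, 0.812 and 0.806, and of 0.142, 0.220 and 0.224 without the corner. The scanner had marked 9 member spots of this array as outliers, 8 of them in the corner. The values below leave the corner out where this is stated.

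With the corner left out, the 8 genes with the largest SD of the deviation were S28b, S26, L13, L9, L35A, S8, S27A and L8. Of these, S28b, L13, L9, L35A and S8 did not overlap between the slides, and S26, S27A and L8 did overlap. In all, the deviations of 12 of 76 members did not overlap between slide 2 and slide 1. Measured in the same way, as the deviation from the ribosomal protein median, 3.79% of all sequences did not overlap, though the other sequences are not centred on a group of their own. Higher on slide 2 were S28b (by 0.79 in the mean), L35A (0.59), LP1 (0.48), S19a (0.44), L28 (0.42) and S3 (0.27), against 2.66% of all sequences apart in this direction. Lower on slide 2 were L13 (-0.70), L9 (-0.66), S8 (-0.61), L24 (-0.51), L4 (-0.50) and L31 (-0.49), against 1.12% of all sequences. The median SD of a deviation was 0.16 over all channels and 0.11 within slides. After normexp, 6 of these 12 genes still did not overlap (S19a, L13, L9, L24, L4 and L31). All 12 kept the sign, and 5.47% of all sequences did not overlap.

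S28b deviated by 0.16 to 0.68 on slide 2 (median 0.40) and by -0.78 to 0.01 on slide 1 (median -0.39). L9 deviated by -0.42 to -0.22 on slide 2 (median -0.34) and by 0.16 to 0.49 on slide 1 (median 0.35). L13 deviated by -0.81 to -0.08 on slide 2 (median -0.29) and by 0.08 to 0.61 on slide 1 (median 0.33). Each of these 3 genes had 16 channels a slide with no overlap. After normexp L9 and L13 still did not overlap. S28b then did, at -0.236 to 0.541 on slide 2 and -0.455 to 0.157 on slide 1, with a difference of 0.323 in the mean. The stages of 1 slide could differ as well. On slide 2, L13 deviated by -0.81 and -0.77 in the third-instar intermolt and by -0.14 to -0.08 in the fourth-instar intermolt. L35A deviated by 0.05 to 0.57 on slide 2 and by -0.52 to 0.03 on slide 1, and S8 by -0.43 to -0.19 on slide 2 and by 0.06 to 0.54 on slide 1. After normexp L35A and S8 overlapped between the slides. Both intermolts lay on slide 2, and slide 1 held only stages of 4 to 13 h after HCS. For these genes a difference between stages, intermolt against molt included, and one between slides therefore cannot be fully told apart.

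**Figure D2:**
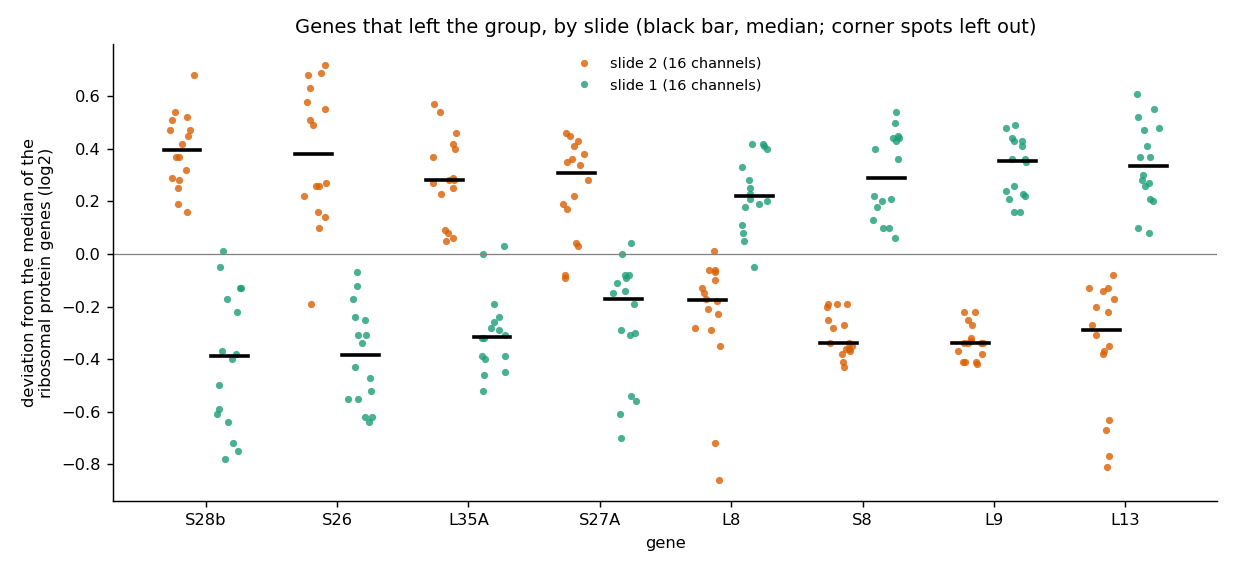
Deviation of single ribosomal protein genes from the group median, in log2, per channel, with slide 2 left of slide 1 and the corner spots left out. S28b lies at 0.16 to 0.68 on slide 2 and -0.78 to 0.01 on slide 1, and L9 at -0.42 to -0.22 on slide 2 and 0.16 to 0.49 on slide 1. After normexp, which is not drawn, S28b overlapped between the slides and L9 did not.

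The difference between slides moved with the place of the probe in the transcript. Probes that end in a run of 6 A, minus probes within the coding sequence, had a median difference of -0.68 to -0.11 in the 16 channels of slide 2 and 0.00 to 0.39 in the 16 channels of slide 1. The sign was negative in 16 of 16 channels of slide 2 and positive in 16 of 16 channels of slide 1. On slide 2 the difference was -0.68 to -0.62 in the third-instar intermolt, then -0.38 to -0.36, -0.185 to -0.156 and -0.197 to -0.135 at 0, 4 and 16 h. At 4 h of the fourth-instar molt, on slide 1, it was 0.128 to 0.297. Slide 1 held only stages of 4 to 13 h, so stage and slide cannot be fully told apart. For probes across the stop codon the difference was -0.27 to -0.07 on slide 2 and 0.01 to 0.27 on slide 1. The labelling of these samples started from an oligo-dT primer at the 3′ end of the mRNA, and its part in the difference was not tested.

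As slide 2 minus slide 1, the median over probes was -0.41 for probes ending in the run of A, -0.11 for probes across the stop codon and 0.15 for coding probes. Among coding probes it was -0.11 for those that began 20 to 45 codons before the stop codon, 0.25 for 46 to 67 codons and 0.30 for 70 to 259 codons. Among coding probes the medians thus rose with distance from the stop codon. Probes ending in the run of A were classed by that run alone, and their place relative to the stop codon was not determined. The base composition of the classes differed too, with a mean GC content of 38.5% for probes ending in the run of A, 37.2% for those across the stop codon and 44.7% for coding probes, and its part was not tested.

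The same held within genes. A set of 39 genes had a probe across the stop codon or ending in the run of A, and another in the coding sequence. In 33 of the 39 the former was the lower on slide 2 relative to slide 1. The median difference was -0.36 (-1.03 in LP0 to 0.37). L28 gave 0.01 with probe 1, across the stop codon, and 0.86 with probe 2, in the coding sequence. L37A gave 0.20 across the stop codon and 0.84 with its coding probe. In other genes both probes moved the same way: L9 gave -0.75 across the stop codon and -0.55 within the coding sequence, L13 gave -0.76 and -0.55, and L35A gave 0.48 and 0.72. In these 3 genes too the probe nearer the 3′ end was the lower of the pair.

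**Figure D3:**
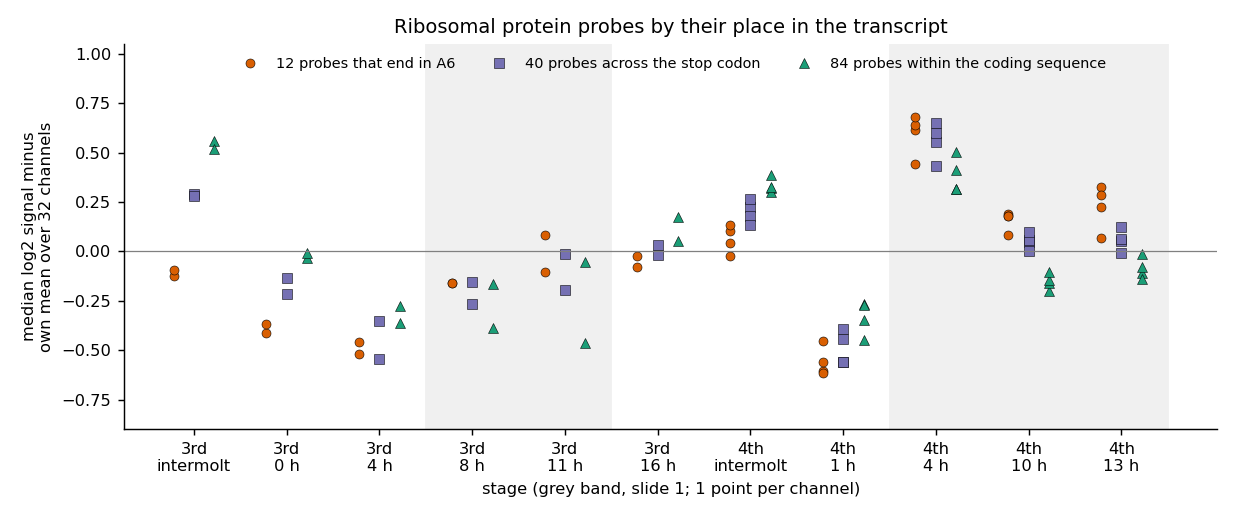
Median of the ribosomal protein probes that end in a run of 6 A, run across the stop codon or lie within the coding sequence, per channel. Values are in log2 relative to each probe's own mean, in order of stage, with the stages of slide 1 shaded. Minus the coding median of the same channel, the probes ending in the run of A lie at -0.68 to -0.11 on slide 2 and at 0.00 to 0.39 on slide 1.

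S26 and S27A left the group without a clean division between slides. S26 belongs to the small subunit at the mRNA exit channel, and S27A is made as a fusion with ubiquitin. S26 deviated by -0.19 to 0.72 on slide 2 and by -0.64 to -0.07 on slide 1, with stage means of 1.09 in the third-instar intermolt and -0.61 at 10 h of the fourth-instar molt. Probes 1 and 3 of S26 were identical in 58 of 60 letters, so they are not independent, and gave 0.63 and 0.54 as slide 2 minus slide 1.
S26 probe 1: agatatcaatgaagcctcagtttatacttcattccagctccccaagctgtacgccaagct
S26 probe 3: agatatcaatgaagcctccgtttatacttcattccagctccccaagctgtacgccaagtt
S27A deviated by -0.70 and -0.54 in black and by -0.56 and -0.61 in white epidermis at 8 and 11 h of the third-instar molt. In the other 12 channels of slide 1, all of the fourth instar, it deviated by -0.31 to 0.04. On slide 2 it deviated by -0.09 to 0.46. L8 deviated by -0.86 to 0.01 on slide 2 and by -0.05 to 0.42 on slide 1.

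Between dark and pale epidermis the ribosomal protein genes differed little. Black against white, the median log2 ratio of the members was -0.07, against -0.04 over all sequences, and 62 of 76 members were lower in black. limma called 2 of 76 members, S29 and S5a, both lower, where 2.54% of all sequences were called and 1.89% were called lower. At an unadjusted p under 0.05 there were 15 of 76, against 670 of all 3380 sequences. Eyespot and V-shaped together against green, the median was 0.02, against -0.01 over all sequences, and its sign turned without scaling (-0.001) and after normexp (-0.017). limma called 5 of 76 members, where 9.94% of all sequences were called. LP1 and S23 were higher, against 5.36% of all sequences called higher, and S29, L12 and S5a were lower, against 4.59% called lower. At an unadjusted p under 0.05 there were 19 of 76, against 896 of all 3380 sequences. The eyespot and V-shaped arrays of a stage are paired by that stage. With the stage as a block limma called 2 of 76, S29 and LP1, where 4.79% of all sequences were called.

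S29, a small zinc-binding protein of the small subunit, was lower in the dark region on all 16 arrays. Eyespot over thoracic green, its log2 ratio was -0.09 in the intermolt and -0.30, -0.42, -0.23 and -0.19 at 1, 4, 10 and 13 h. V-shaped over abdominal green, it was -0.33 in the intermolt and -0.50, -0.42, -0.20 and -0.42 at 1, 4, 10 and 13 h. Black over white on the mimetic arrays, it was -0.66 at the lowest, -0.35 at the median and -0.08 at the highest. No array had the opposite sign, and both probes were lower on 16 of 16 arrays. The mean ratio was -0.31 ± 0.06 on the cryptic arrays (SE, n = 10 arrays, 0.807-fold, limma adjusted p = 0.00474) and -0.35 ± 0.07 on the mimetic arrays (n = 6 arrays, 0.782-fold, adjusted p = 0.0239). Within the cryptic arrays, the mean of the eyespot arrays was -0.25 ± 0.08 (adjusted p = 0.104), where 3.79% of all sequences were called, and that of the V-shaped arrays -0.37 ± 0.08 (adjusted p = 0.0364), where 1.21% were called. The mimetic call was lost without the 8 h (adjusted p = 0.0998), the 11 h (0.102) or the 16 h array (0.059), and with limma run on the mimetic arrays alone (0.122).

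S5a, a small-subunit protein near the site where mRNA leaves, was lower in the dark region on 16 of 16 arrays and with both printed probes on each. Eyespot over thoracic green its ratio was -0.05 in the intermolt and -0.17, -0.27, -0.16 and -0.12 at 1, 4, 10 and 13 h. V-shaped over abdominal green it was -0.14, -0.19, -0.13, -0.16 and -0.18 over the same stages. On the mimetic arrays it was -0.42 at the lowest, -0.17 at the median and -0.09 at the highest. All values were thus below 0, though small. The means were -0.16 ± 0.04 (0.897-fold, limma adjusted p = 0.0275) on the cryptic and -0.21 ± 0.05 (0.863-fold, adjusted p = 0.0484) on the mimetic arrays. Over the 16 fits without 1 array each, adjusted p was 0.019 to 0.0574 for the cryptic arrays, with the call lost without the eyespot array of 1, 4, 10 or 13 h or the V-shaped array of 1 or 10 h. With the stage as a block the cryptic adjusted p was 0.0617. For the mimetic arrays it was 0.0485 to 0.157, and the call held in 2 of the 16 fits, without the mimetic intermolt array and without the eyespot array of 10 h.

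L12, at the base of the stalk of the large subunit, was the third gene lower on all 16 arrays, at -0.20 to -0.08 on the eyespot arrays, -0.31 to -0.06 on the V-shaped arrays and -0.45 to -0.05 on the mimetic arrays (median -0.20). Probe 2 was lower on 14 of 16. The means were -0.16 ± 0.05 (limma adjusted p = 0.0341) on the cryptic and -0.22 ± 0.06 (adjusted p = 0.0581) on the mimetic arrays. The cryptic call was lost without the eyespot array of 1, 4, 10 or 13 h and without the V-shaped array of the intermolt or of 1, 10 or 13 h, with adjusted p between 0.0245 and 0.0731 over the 16 fits, and it was 0.0766 with the stage as a block. These 3 genes were the members lower on all 16 arrays, and 0.444% of all sequences were. No member was higher on all 16, and 0.533% of all sequences were.

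The P stalk, which recruits the GTPases of translation, held the highest estimate of each comparison, LP1 on the cryptic and LP2 on the mimetic arrays. LP1 was higher in the dark region on all 10 cryptic arrays, at 0.07, 0.27, 0.20, 0.34 and 0.32 on the eyespot arrays (intermolt, then 1, 4, 10 and 13 h) and 0.08, 0.11, 0.22, 0.21 and 0.16 on the V-shaped arrays. Its mean there was 0.20 ± 0.05 (1.15-fold, limma adjusted p = 0.0194), and 0.187 with adjusted p = 0.0517 without the eyespot array of 13 h. On the mimetic arrays it averaged -0.05 ± 0.06 (adjusted p = 0.749). LP2 was higher on 15 of 16 arrays, with means of 0.14 ± 0.04 (adjusted p = 0.0599) on the cryptic and 0.11 ± 0.06 (adjusted p = 0.273) on the mimetic arrays. Its probes differed in this. Probe 3 averaged 0.323 on the cryptic and 0.255 on the mimetic arrays and was lower on 0 of 15. Probe 1 averaged -0.024 and 0.019 and was lower on 9 of 16. Probe 2 averaged 0.044 and 0.066 and was lower on 4 of 16. LP0, the protein that anchors LP1 and LP2, was higher on 5 of 16.

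S23, which sits at the decoding centre, averaged 0.17 ± 0.05 on the cryptic arrays (limma adjusted p = 0.0433). The call was lost without any 1 eyespot array but that of 4 h, any 1 V-shaped array but that of 13 h, and the mimetic array of 0 or 16 h, with adjusted p up to 0.0932, and it was 0.0924 with the stage as a block. It was between -0.22 and 0.16 on the mimetic arrays. L18A had the second highest mimetic estimate, at 0.06 ± 0.05 (adjusted p = 0.529). The cryptic minus mimetic difference was above 0 for 73 of 76 members, with a median of 0.10. It was also above 0 for 1907 of all 3380 sequences (median 0.036). All 12 translation factors (median 0.233) and all 12 muscle genes (median 0.396) were above 0 too. limma called 0 of 76 (smallest adjusted p = 0.178), where 0.0888% of all sequences were called. At an unadjusted p under 0.05 limma had 4 of 76, against 518 of all 3380 sequences. The eyespot and V-shaped ratios did not differ past the threshold in any member, or in 0.0% of all sequences. At an unadjusted p under 0.05, 0 members passed, against 204 of all 3380 sequences.

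**Figure D4:**
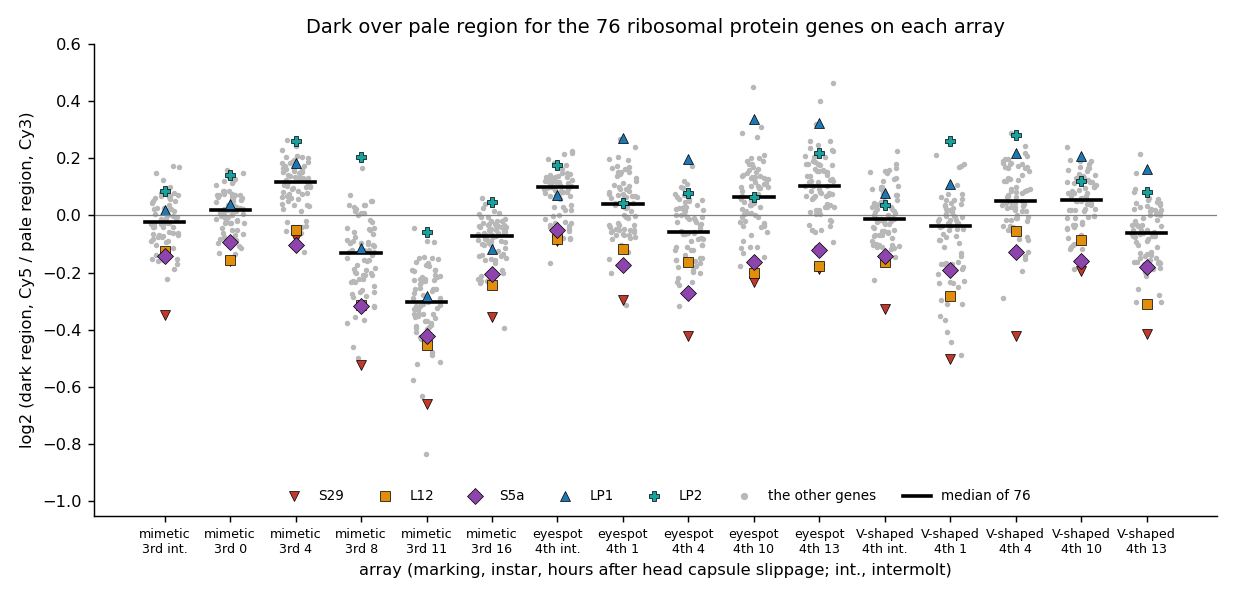
Log2 ratio of the dark over the pale region for the ribosomal protein genes on each array, with S29, S5a, L12, LP1 and LP2 marked among the other members in grey. S29 lies below 0 on 16 of 16 arrays (-0.66 to -0.08) and LP1 above 0 on all 10 cryptic arrays.

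The lower mimetic median rested mainly on the later molt. The median black over white ratio was -0.02 in the intermolt, 0.02 at 0 h, 0.12 at 4 h, -0.13 at 8 h, -0.30 at 11 h and -0.07 at 16 h. Without the 11 h array the median of the fit was -0.026. At 11 h 0 of 76 members were higher in black, while the median over all sequences was -0.07, that of the 12 translation factors -0.42, that of the muscle list -1.19 and that of the cuticular protein genes 0.42. At 8 h 14 of 76 members were higher in black, with a muscle median of -0.51. Muscle was also lower in black at 0 h (-0.66) and 4 h (-0.57), where the ribosomal protein median was not below 0. The part of muscle RNA in these ratios was not tested.

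Regions of the fourth instar with the same dye were compared between the arrays of a stage. Thoracic against abdominal green, the median of the members over 5 stages was 0.02, with 50 of 76 higher. limma called 0 of 76 (0 at an unadjusted p under 0.05), where 0.0888% of all sequences were called. By stage the median difference was -0.03 in the intermolt and 0.10, 0.18, 0.05 and -0.15 at 1, 4, 10 and 13 h. All sequences had medians of 0.027 in the intermolt and -0.109, 0.091, 0.033 and -0.101 at 1, 4, 10 and 13 h. At 4 h 75 of 76 members were higher in thoracic green and at 13 h 2 of 76 were. The direction was thus shared within a stage and not between stages. At 4 and 13 h the median of all sequences had the same sign as that of the members, so these counts are not particular to the members. The muscle list was lower in thoracic green at each stage, by medians from -1.69 (4 h) to -0.29 (13 h), and its part was not tested.

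Eyespot against V-shaped, the median was 0.08, with 73 of 76 members higher. limma called 0 of 76 (0 at an unadjusted p under 0.05), where 0.0% of all sequences were called. The stage medians were 0.05 in the intermolt and 0.17, 0.06, 0.08 and 0.00 at 1, 4, 10 and 13 h. Those of all sequences were 0.031 in the intermolt and -0.035, -0.009, 0.038 and -0.009 at the same hours. The muscle list was lower in eyespot epidermis at each stage, with medians of -0.72 in the intermolt and -1.13, -1.74, -0.19 and -0.64 at 1, 4, 10 and 13 h, and its part was not tested. The largest estimates, L7 at 0.95 ± 0.75 and L35 at 0.86 ± 0.71, were 0.02 and 0.05 without the corner of the 1 h array. For thoracic against abdominal green, L7 at 0.89 ± 0.66 and LP2 at 0.83 ± 0.64 were 0.04 and 0.04 without it. At the other end LP0 was at -0.01 ± 0.09 and S20 at -0.01 ± 0.09 for eyespot against V-shaped, and L38 at -0.06 ± 0.11 and S2 at -0.06 ± 0.13 for thoracic against abdominal green.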

How the data were processed

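Larval epidermis was measured on 16 Agilent arrays of 2 colours. The authors extracted total RNA, made cDNA from an oligo-dT primer, labelled the amplified cRNA and read the scans with Feature Extraction. Per the file headers, the deposited signals are intensities on a linear scale, from which the software had taken the background and evened out the dyes, with no scaling between arrays. The series table deposited by the authors holds log10 ratios of Cy5 over Cy3. It was used as an alternative, and its direction follows from the dyes. The number of arrays limits the precision.

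Here each channel was divided by its 75th percentile over P. xuthus probes. Outlier-marked spots were left out. log2 values were averaged over the probes of a sequence, and limma 3.58.1 (R 4.3.3) with Benjamini-Hochberg adjustment over all 3380 sequences gave the tests, at 0.05. Ratios of the 16 arrays were fitted with 1 mean per marking. Stage means were fitted with instar, intermolt, hours and slide, and region pairs by differences within a stage. Summaries used Python 3.11.15. The code was tested on simulated data.

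Members, lists and tests were chosen with earlier results of these data known. Named genes were the 8 with the largest and the 2 with the smallest SD of the deviation from the group, those deviating by at least 1 in both channels of an array, the 2 highest and 2 lowest estimates of each comparison with called genes, and the 3 whose probes disagreed most (L7, L31 and L35). The 8 most deviating genes without the corner spots were added after their values were seen, and so were the genes named for probe place, stalk membership or a slide difference. Subunits follow gene names, and roles are background knowledge from ribosomes of other organisms. No probe was placed on a genome. Scaling, normexp (offset 50, on median pixel signals, since mean signals were not used here), probe filters, slide and stage terms and leaving out arrays were tried. The corner, coding probes alone and the series table were added after seeing the data.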

Additional observations from a re-analysis of the deposited data

Results flagged for a closer look

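Of 46 groups of values examined for a sample far from the others, 8 held one, and chance alone marks about 1 in 20. In 7 of the 8 the sample was the V-shaped array at 1 h, whose low corner is described above. L7 was 4.59 higher in eyespot than in V-shaped epidermis and 4.12 higher in thoracic than in abdominal green. L35 was 4.30 higher in eyespot than in V-shaped epidermis, and LP2 was 3.99 higher in thoracic than in abdominal green. Among the fourth-instar stages the 1 h mean was -2.51 for L31, -2.14 for L35 and -2.47 for L7. The remaining value was the eyespot over thoracic green ratio of S23 at 4 h, at -0.081, where the other 4 eyespot arrays lay between 0.225 and 0.311.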

How the results depend on the processing

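Leaving out 1 array at a time gave 0 to 2 members called black against white and 1 to 10 called on the cryptic arrays. Other settings changed the counts by over 1.5 times. The mimetic count of 2 became 1 without scaling (2.13% of all sequences called) or with one common median (1.83%). It was 5 after normexp (3.82%) or with slide as a term (4.29%), and 4 with probes well above background (4.91%). With the mimetic arrays alone it was 0 (0.207%), and with probes as units 10 of 200 (3.62% of all probes). The cryptic count of 5 became 16 after normexp (10.6% of all sequences called), 9 with probes well above background (15.3%) and 8 with slide as a term (11.1%). It was 3 of 64 with coding probes (9.92%) and 2 with the cryptic arrays alone (3.61%). With probes as units it was 29 of 200 (12.2% of all probes). A replicate block by stage (correlation 0.247) pairs the eyespot and V-shaped arrays of a stage. It gave 2 in the cryptic comparison (4.79% of all sequences called) and left the mimetic count at 2. Under the block S29 and LP1 kept their call and S5a (adjusted p = 0.0617), L12 (0.0766) and S23 (0.0924) lost theirs. The counts of 0 for instar, molt, hours and segment were 0 in each alternative, while up to 35 members passed at an unadjusted p under 0.05 for molt after normexp.

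The median of all members kept its sign for black against white in every setting. Eyespot against V-shaped it was 0.195 without scaling and 0.148 with one median, and thoracic against abdominal green 0.169 without scaling. Without single stages the molt median ranged from -0.963 to -0.399 and the slope per hour from -0.052 to 0.022. Among all sequences called black against white, 25.6% were higher, against 36.1% without scaling. For molt the share was 44.7%, against 55.3% without scaling and 21.6% after normexp. For the cryptic comparison it was 53.9%, against 41.9% without scaling. By hours 264 sequences were called higher and 323 lower, and without scaling 31.9% of those called were higher. By instar 11 were called higher and 11 lower, and 61.9% of those called were higher with one median and 25.9% after normexp.

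None of the estimates that changed sign had passed the threshold. They were L35 by instar (0.041 without the corner, 0.078 with probes well above background), L38 (0.089, 0.008) and S2 (0.091, 0.007, and 0.020 after normexp) in green without scaling or with one median, and L7 by hours (-0.001 after normexp). For molt L7A was 0.027 without scaling and L8 0.097 without the slide term and 0.078 after normexp. Eyespot against V-shaped, LP0 was 0.106, 0.059 and 0.014, and S20 0.111, 0.064 and 0.018, without scaling, with one median and with the percentile over all probes, and S20 0.016 with coding probes. Leaving out single stages gave L31 -0.973 to 0.060, L35 -0.702 to 0.174, L39 -0.104 to 0.002, L7 -0.024 to 0.083, L7A -0.237 to 0.106, L8 -0.435 to 0.090, LP0 -0.036 to 0.020, S2 -0.123 to 0.008, S20 -0.042 to 0.015 and S26 -0.074 to 0.008 in those comparisons. The cause was not tested.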

Other observations

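Some members had probes that disagreed without the corner. The 4 probes of LP1 differed between slides by 0.87, -0.16, -0.22 and 1.47 (slide 2 minus slide 1), and the 4 probes of S23 by -1.16, 0.08, 0.44 and 0.16. L7A, of the large subunit, had 2 probes ending in a run of A at -0.65 and -0.67 and 3 probes without a held sequence at 0.15, 0.07 and 0.30. Its eyespot over thoracic green ratio was 0.45 at 10 h and 0.47 at 13 h, the highest of any member on those arrays, and near 0 at 1 and 4 h (-0.01 and 0.00). Its mean on the eyespot arrays was 0.20 ± 0.08 (limma adjusted p = 0.157).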
